A study of Saccharomyces cerevisiae with 27 samples.

Results

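The genes described here are the 451 of 5298 gene intervals (8.51%) that share at least 500 bp with a Break-seq peak of hst34 over WT. They were chosen by the Break-seq readout alone, so their Break-seq values are a description of the choice and are given without a test. RNA-seq and DRIP-seq of the same strains were not used in the choice, and both are compared below between the 451 genes, called members, and all other genes.

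The study used log-phase Saccharomyces cerevisiae carrying the anchor-away system, in which a protein fused to FRB leaves the nucleus once rapamycin is given. RNA-seq compared hst34rrp6, rrp6, hst34 and WT. DRIP-seq compared hst34 and WT, each with RNase H (RNH) and without it, and Break-seq compared hst34 and WT. Every group had 2 libraries. The labels do not tie them to separate cultures. They may be technical repeats, and a p-value may then miss the spread between cultures. In the main RNA test the spread behind each p-value and standard error is pooled over genes and is not the gene's own.

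In hst34, HST4 was deleted and HST3 carried the FRB fusion. In rrp6, RRP6 carried the fusion, and hst34rrp6 combined all of these changes. WT was an anchor-away strain without them. All strains, WT included, grew in YPD at 30 °C with rapamycin for 3 h before harvest. S. pombe cells were added 1:6 at harvest for RNA-seq only, and 50 µg of restricted DNA with or without 30 U of RNase H went into DRIP.

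Hst3 and Hst4 are sirtuins that remove acetyl groups from lysine 56 of histone H3 after new histones have been placed behind the replication fork, and cells that lack both are prone to DNA damage. Rrp6 is the exonuclease subunit of the nuclear RNA exosome, which trims and destroys non-coding and defective transcripts. RNA that stays paired with its template forms an RNA-DNA hybrid, which the S9.6 antibody captures in DRIP-seq and RNase H digests, and Break-seq labels and sequences free DNA ends.

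The deposited list held 239 peaks that covered 858.5 kb. Peaks ran from 500 to 31750 bp with a median of 2250 bp, all in steps of 250 bp, and 212 of them held at least 1 member. Break-seq signal, the authors' scaled reads, had a median over peaks of 152 per kb in hst34 and 89.5 per kb in WT, and the ratio ran from 1.22 to 3.74 with a median of 1.71. In each of the 239 peaks both hst34 libraries lay above both WT libraries, which is what a peak list of hst34 over WT selects.

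Members lay in blocks. Peaks less than 5 kb apart formed 97 domains, and the members formed 125 unbroken runs in the order of the gene table. Only 28 runs held a single member, and 32 runs of 5 or more held 254 of the 451. The longest run had 18 members on chromosome XIII between 701673 and 742773 (sacCer3), from GUA1, encoding GMP synthetase, to RNA1, encoding the GTPase activator of Ran. It also held MRE11, a nuclease of double-strand break repair, RNH1, encoding a ribonuclease H, and RRP5, a ribosome assembly factor. That run came from 5 peaks, the last of which held 8 of its members, so neighbours can share a peak and are not independent observations.

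The peak with the highest ratio spanned 460251 to 483500 on chromosome VII. Its signal was 6886 and 8974 in the hst34 libraries and 2068 and 2170 in the WT libraries, a ratio of 3.74. Its members were ATE1, KAP122, PUF4, PDR1, ERG4, SCL1, MPO1, LEU1 and PMA1. PMA1 encodes the plasma membrane proton ATPase, one of the most abundant proteins of the cell, and PDR1 a regulator of drug pumps. The second peak by ratio, 1019001 to 1050750 on the same chromosome, was the longest of all at 31750 bp and had a ratio of 2.79. It held 13 members, among them TAF1, a subunit of the general factor TFIID, the RNA exonuclease gene RNH70 and the cell wall gene SCW4.

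Loci of genes the strains alter were among the members. RRP6 shared 1646 bp and HST3 807 bp with a peak. HST4 was no member. Its interval, 842301 to 843469 on chromosome IV, fell inside a gap of 1250 bp. The gap lay between a peak that ended at 842250 and another that began at 843501. Since HST4 is deleted in hst34 per the labels, no peak of hst34 over WT could arise over the deleted part. The gap therefore tells nothing of breaks at HST4. GAL1, GAL10, GAL7, TOR1 and the histone H2A gene HTA2 were also members. MSB2, KRE33 and ULS1 each touched 3 peaks, while 411 members touched 1 and 37 touched 2.

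At the edge of the rule, ALT1 and ARA1 were among 6 members with exactly 500 bp shared, and RBL2 and YLR361C-A missed it with 497 bp although both lay wholly inside a peak. ALT1 had RNA signals of 1578 and 1427 per kb in hst34 and of 2439 and 2493 in WT. RBL2 had 645 and 383 in hst34 and 417 and 415 in WT. Because the rule asks for 500 bp, it favours long intervals: members had a median length of 1840 bp and other genes of 1488 bp, and 141 of the other genes were too short to qualify. In 5 bins of length, 5.90% of the shortest and 12.5% of the longest intervals were members.

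Membership differed between chromosomes. On chromosome IV 101 of 697 intervals were members (14.5%), on X 12.7%, on XV 11.5% and on VII 11.4%. At the other end stood XI with 1.99%, VI with 0.971% and V with 1 of 250 (0.4%). Of the 87 intervals within 20 kb of the start of a chromosome or of the end of its last gene, 16 were members (18.4%). Members lay on the plus strand in 230 cases and on the minus strand in 221. An interval on the opposite strand overlapped 43.9% of members and 34.5% of other genes, a difference that includes that of length.

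Genes outside the table were placed by their RefSeq midpoint. A peak covered the midpoint of 417 of 6002 protein-coding genes (6.95%), of 4 of 275 tRNA genes (1.45%) and of 11 of 76 snoRNA genes (14.5%). Of these snoRNA genes 7, SNR72 to SNR78, form 1 cluster on chromosome XIII.

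Several families had few or no members, by lists drawn up with earlier results of these data known. Cytosolic ribosomal protein genes had 3 members of 136 (2.21%), RPL30, RPL24A and RPS10B, against 8.51% of all intervals. No share here was matched for length, and 5.90% of the shortest and 12.5% of the longest intervals were members. Families with near-identical copies are uncertain, so a low share cannot be read as fewer breaks. Glycolysis and fermentation genes had 0 of 21 and hexose transporter genes 0 of 9. Chaperone genes had 4 of 25 (16%), CPR6, STI1, HSP78 and SSE2. Recombination and end-joining genes had 4 of 28 (14.3%), EXO1, MRE11, XRS2 and RAD55, and genes that limit RNA-DNA hybrids had 3 of 25 (12%), RRP6, SRS2 and RNH1. Replication fork genes had 3 of 39 (7.69%), and nucleolar ribosome assembly genes 5 of 56 (8.93%). Cell wall genes had 4 of 40, BGL2, SCW4, EGT2 and MSB2, the plasma membrane and vacuolar ATPases 2 of 13, PMA1 and VMA7, and ergosterol and fatty acid synthesis 4 of 27, ERG5, ACC1, ERG4 and ERG8.

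The remaining lists held few members each. Mitochondrial ribosomal protein genes had 4 of 67, histone genes 1 of 11 (HTA2), and genes of H3K56 acetylation and nucleosome assembly 2 of 20 (HST3 and the histone repressor gene HIR2). DNA damage checkpoint genes had 2 of 22, the kinase gene DUN1 and the mediator gene MRC1. Translation factors had 1 of 21 (FUN12), amino acid and ammonium permeases 1 of 25 (SSY1, an amino acid sensor), the phosphate regulon 1 of 15 (VTC4) and seripauperins 0 of 1. In RNA, limma called 6 of the listed members in a test against WT. Over all genes limma called 0.661% higher in hst34, 6.63% lower in rrp6, and 10.2% higher and 5.7% lower in hst34rrp6. The 6 were HSP78 in hst34, RRP6 in rrp6 and hst34rrp6, and EXO1, EGT2, PMA1 and VTC4 in hst34rrp6. Their lists as wholes had 5 of 25 chaperone genes higher in hst34, and in hst34rrp6 9 of 28 recombination genes higher, 13 of 15 phosphate genes lower, 4 of 13 ATPase genes lower and 1 higher, 9 of 40 cell wall genes lower and 6 higher, and 4 of 25 genes that limit hybrids higher and 1 lower.

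The members' RNA was close to that of other genes in all 8 libraries. RNA signal is spike-in scaled and per kb. The member median was 311 and 372 in hst34rrp6, 298 and 330 in rrp6, 326 and 238 in hst34 and 300 and 330 in WT. Other genes had 349 and 405 in hst34rrp6, 321 and 366 in rrp6, 365 and 265 in hst34 and 315 and 360 in WT. On the log2 scale the difference, members minus others, averaged -0.11 ± 0.03 (SD, n = 8 libraries) and ran from -0.14 to -0.06. Among intervals of 1000 to 2000 bp, 183 members and 2210 others, it ran from -0.12 to 0.03. In 5 equal bins of mean RNA, from low to high, 7.55%, 10.7%, 8.88%, 7.84% and 7.64% of genes were members, so the members were spread over the whole range of transcript levels.

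The most transcribed members were PMA1, RPL30, BGL2, RPL24A and RPS10B. PMA1 had 30898 and 32872 per kb in hst34rrp6, 35357 and 36769 in rrp6, 39766 and 32294 in hst34 and 50377 and 47330 in WT, rank 16 of all genes by mean. BGL2, encoding a cell wall glucanosyltransferase, ranked 106. RPL24A and RPS10B have near-identical copies, so their reads are uncertain. At the low end were GAL7 and GAL10, which cells in glucose keep off: GAL10 had 44.3 and 56.4 in hst34rrp6, 38.6 and 35.7 in rrp6, 16.9 and 8.58 in hst34 and 12.9 and 11.3 in WT.

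In RNA of hst34 against WT, 8 of 451 members passed the test (limma, adjusted p under 0.05 over 5294 genes). The 3 that rose were HSP78, ARG3 and MET32, and the 5 that fell were CHA1, OPT2, AMD2, VHS1 and IRC7. Over all genes 0.661% were called higher and 1.34% lower, and over members 0.665% and 1.11%, so the share called was near the background. The member median was -0.09 (log2) beside -0.08 over other genes. With bulk RNA, fewer expressing cells and less RNA per cell cannot be told apart.

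HSP78 encodes a disaggregase of the mitochondrial matrix. Its RNA was 417 and 455 per kb in hst34 and 217 and 197 in WT, a log2 fold change of 0.90 ± 0.21 (SE, n = 2 per group, adjusted p = 0.00281). ARG3, ornithine carbamoyltransferase of arginine synthesis, had 135 and 102 in hst34 and 37.1 and 56.1 in WT (0.75 ± 0.16, adjusted p = 0.000397). For both, each hst34 library lay above each WT library. MET32, a zinc-finger activator of sulphur amino acid genes, was low, with 46.9 and 38.9 in hst34 and 20.4 and 13.5 in WT (0.43 ± 0.12, adjusted p = 0.0340). Its interval lies almost wholly across that of BTT1 on the other strand, and since the use of strand is not given, reads of the pair cannot be told apart.

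CHA1, the deaminase that lets cells use serine and threonine as nitrogen sources, had 432 and 398 per kb in hst34 and 954 and 1018 in WT (-1.14 ± 0.22, adjusted p = 7.38e-05). OPT2, an oligopeptide transporter family member, had 62.3 and 50.1 in hst34 and 171 and 160 in WT (-0.96 ± 0.18, adjusted p = 3.26e-05). In rrp6 neither passed the test, with 1094 and 1044 for CHA1 and 166 and 168 for OPT2. AMD2, a putative amidase, had 169 and 88.0 in hst34 and 281 and 301 in WT (-0.94 ± 0.19, adjusted p = 0.000140). The AMD2 interval lies mostly across that of PRP28 on the other strand, so reads of this pair cannot be told apart either. VHS1, a protein kinase, had 232 and 144 in hst34 and 382 and 417 in WT (-0.91 ± 0.20, adjusted p = 0.000997). IRC7, a cysteine desulfhydrase gene near the end of chromosome VI and the only member there, had 2105 and 1597 in hst34 and 3830 and 3036 in WT (-0.87 ± 0.22, adjusted p = 0.00613). In all 5 the hst34 and WT libraries did not overlap.

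The count turned on single libraries. Without hst34 1 it was 2 higher and 37 lower (8.65%, against 8.69% of all genes), without hst34 2 it was 8 and 3 (2.44%, against 2.44%), without WT 1 it was 0 and 4 (0.887%, against 1.00%), and without WT 2 it was 1 and 4 (1.11%, against 0.737%). The library hst34 2 had the lowest member median of all 8. DESeq2 on recovered reads called 8 members higher and 26 lower (7.54%, against 8.33% of all genes), edgeR 19 and 32 (11.3%, against 10.8%), and centring each library 15 and 17 (7.10%, against 7.52%). Centring moved the median of all genes from -0.08 to 0.02 in this comparison, and that of members to 0.01. CHA1 and OPT2 kept their calls under every alternative that could test them. MET32 kept its call in 5 of 15 alternatives and lost it under centring, the replicate block and DESeq2, among others. HSP78 lost its call without WT 1 or WT 2, ARG3 and IRC7 without WT 1, AMD2 without hst34 2 and VHS1 without WT 2 or hst34 2. HSP78, IRC7, AMD2 and VHS1 also lost theirs when only hst34 and WT were fitted.

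**Figure D1:**
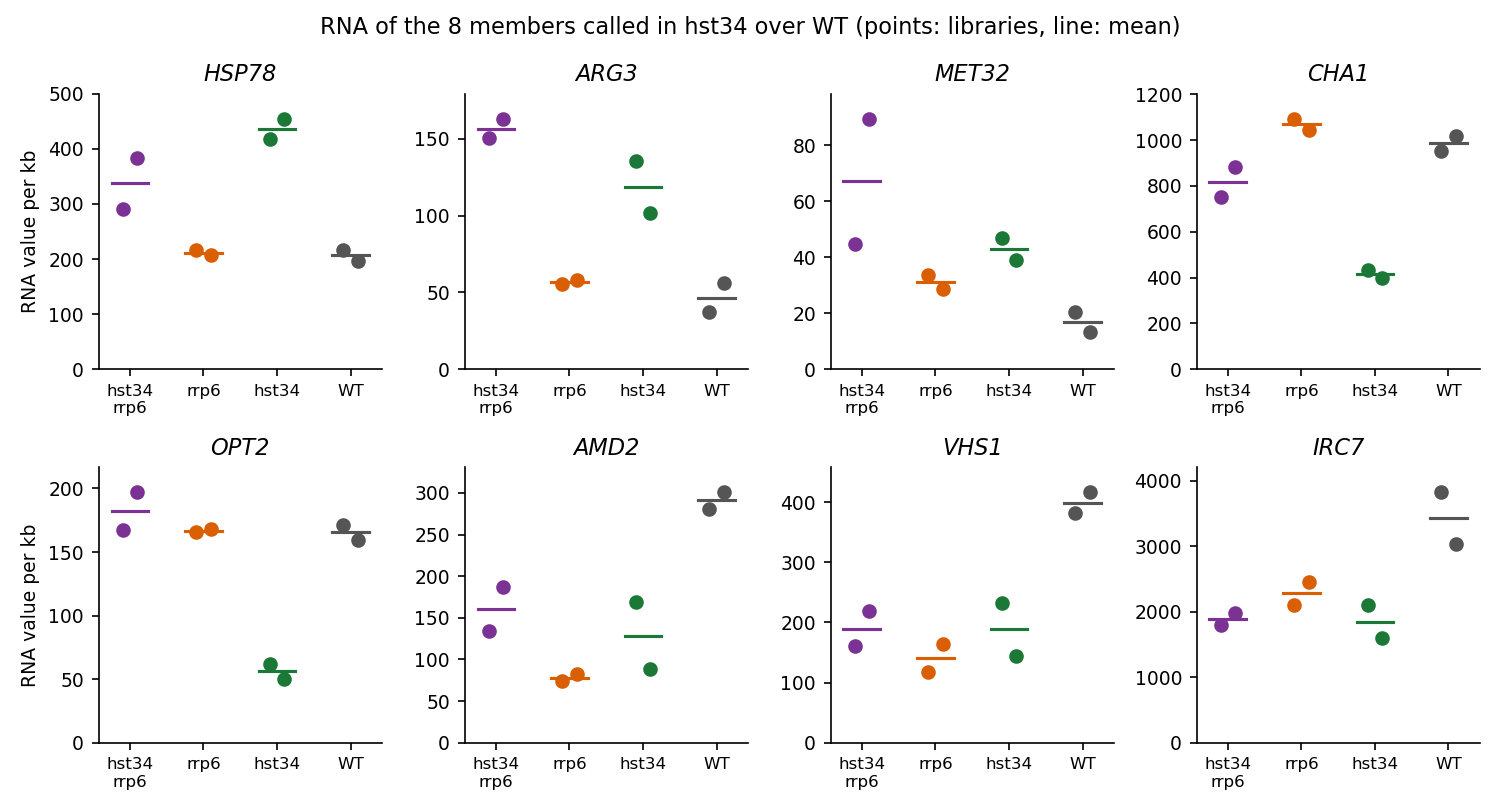
RNA signal per kb (y axis, from 0) of the 8 members called in hst34 over WT, in hst34rrp6, rrp6, hst34 and WT (x axis). Points are libraries and lines are means of 2. CHA1 and OPT2 are low in hst34 (432 and 398, and 62.3 and 50.1) beside the other strains, while AMD2 and VHS1 are low in every strain beside WT.

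In rrp6 against WT, 19 members rose (4.21%, against 4.53% of all genes) and 15 fell (3.33%, against 6.63%). REF2, an RNA-binding subunit of the mRNA 3′-end processing machinery, had 441 and 498 per kb in rrp6 and 182 and 212 in WT (1.05 ± 0.22, adjusted p = 3.70e-05). CTA1, peroxisomal catalase, had 85.8 and 150 in rrp6 and 25.5 and 26.0 in WT (1.04 ± 0.14, adjusted p = 6.47e-11). DOG1, a sugar phosphatase gene with a close copy, GDB1, the glycogen debranching enzyme, SGF29, a SAGA subunit, and MPO1, an enzyme of sphingoid base breakdown, rose by 0.97 ± 0.17, 0.95 ± 0.20, 0.80 ± 0.21 and 0.76 ± 0.20 on the log2 scale. SMC5, of the Smc5-6 complex, and MSH5, a meiotic MutS homolog, were among the others that rose.

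UGA1, the transaminase of GABA use, fell most in rrp6. It had 185 and 192 per kb in rrp6 and 645 and 674 in WT (-1.54 ± 0.22, adjusted p = 2.32e-10). CUE5, a ubiquitin-binding autophagy adaptor, had 118 and 144 in rrp6 and 390 and 517 in WT (-1.43 ± 0.21, adjusted p = 8.52e-10). GDH1, the glutamate dehydrogenase of ammonium assimilation, had 3338 and 3582 in rrp6 and 5964 and 8605 in WT (-1.04 ± 0.21, adjusted p = 3.47e-05). AMD2, VHS1 and TAX4 fell by 1.35, 1.21 and 1.00 on the log2 scale. For each of these 6 genes, both rrp6 libraries lay below both WT libraries. RRP6 itself, whose locus carries the FRB tag in rrp6, had 353 and 415 in rrp6 and 666 and 741 in WT (-0.79 ± 0.22, adjusted p = 0.00538).

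The 2 counts in rrp6 depended on what was in the fit. Fewer were called without any single WT or rrp6 library, in members and over all genes alike. Without hst34 1 or without hst34 2, which enter only through the shared spread, more were called, again in members and over all genes. Centring gave 67 and 74 (31.3%, against 33.3% of all genes), edgeR 82 and 67 (33.0%, against 36.1%), and DESeq2 64 and 54 (26.2%, against 30.6%). GDH1 lost its call without WT 2, MPO1 without WT 2 or rrp6 2, and SGF29 without WT 1 or either rrp6 library, while REF2, CTA1, DOG1, GDB1, UGA1, CUE5, AMD2, VHS1 and TAX4 kept theirs in every alternative that could test them.

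In hst34rrp6 against WT, 37 members rose (8.20%, against 10.2% of all genes) and 23 fell (5.10%, against 5.7%). This comparison and that of rrp6 share their WT libraries. REF2 had 465 and 542 per kb in hst34rrp6 (1.14 ± 0.22), CTA1 101 and 136 (1.06 ± 0.14) and DOG1 187 and 201 (1.04 ± 0.17), beside WT values of 53.3 and 75.6 for DOG1. ARG3 had 150 and 163 in hst34rrp6 and 37.1 and 56.1 in WT (1.04 ± 0.16, adjusted p = 4.29e-09). YKR104W, an ABC transporter fragment, rose by 1.02 ± 0.17 and SGF29 by 0.95 ± 0.21. EXO1, the exonuclease of mismatch repair and end resection, was 0.73 ± 0.21 higher (adjusted p = 0.00616), the only one of the 4 recombination members called. GAL10 and GAL7 rose by 0.62 and 0.33, where the pseudocount holds down the fold change of such low genes.

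CUE5 fell by 1.35 ± 0.21, GDH1 by 1.07 ± 0.21, YPR1, an aldo-keto reductase, by 1.06 ± 0.22, DPM1, dolichol phosphate mannose synthase, by 0.90 ± 0.22, and VHS1 and UGA1 each by 0.89 on the log2 scale. PMA1 was also lower in hst34rrp6, at -0.61 ± 0.19 (adjusted p = 0.00929), and missed the threshold in hst34 (-0.45 ± 0.19) and rrp6 (-0.44 ± 0.19). EGT2, a cell separation glucanase, fell by 0.83 ± 0.22 and VTC4, of the polyphosphate polymerase, by 0.59 ± 0.22 (adjusted p = 0.0464).

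With each library centred the split in hst34rrp6 was 83 higher and 85 lower (37.3%, against 38.7% of all genes). With edgeR it was 101 and 81 (40.4%, against 42.1%) and with DESeq2 82 and 78 (35.5%, against 35.6%). Leaving out WT 1, WT 2, hst34rrp6 1 or hst34rrp6 2 lowered the number called, in members and over all genes. The balance of higher and lower members turned on which hst34rrp6 library was left out. Leaving out either hst34 library raised it, also in members and over all genes. Centring moved the median of all genes from 0.11 to -0.02, and the member median from 0.13 to 0.00. VHS1 and UGA1 lost their calls without hst34rrp6 1.

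**Figure D2:**
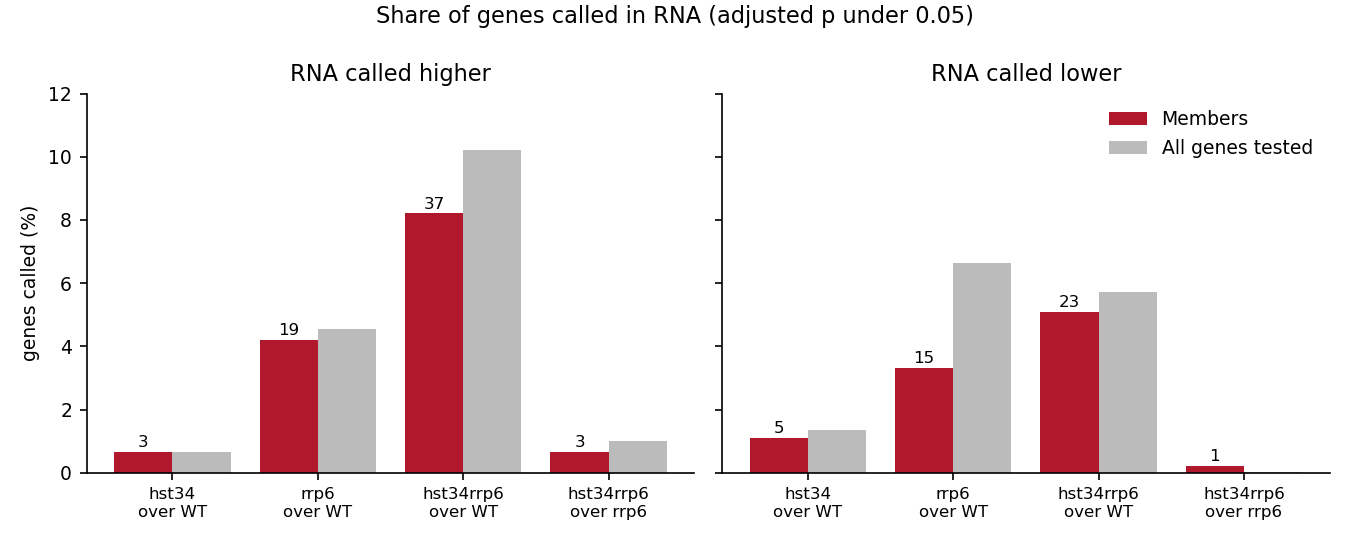
Share of genes called higher (left) and lower (right) in RNA at adjusted p under 0.05 (y axis, percent), for members and for all genes tested, in 4 comparisons (x axis). Numbers above the bars are members called; in hst34rrp6 over WT 37 members rose (8.20%, against 10.2% of all genes) and 23 fell.

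In hst34rrp6 against rrp6, 3 members rose (0.665%, against 1% of all genes) and 1 fell (0.222%, against 0.0378%). ARG3 had 150 and 163 per kb in hst34rrp6 and 55.5 and 57.9 in rrp6 (0.90 ± 0.16, adjusted p = 7.13e-06) and kept its call under every alternative that could test it. AMD2 had 134 and 187 in hst34rrp6 and 73.7 and 82.3 in rrp6 (0.67 ± 0.19, adjusted p = 0.0345). MET32 had 44.8 and 89.5 in hst34rrp6 and 33.7 and 28.6 in rrp6 (0.46 ± 0.12, adjusted p = 0.0220). NUP42, a nucleoporin of mRNA export and the gene next to HST4, had 79.8 and 94.5 in hst34rrp6 and 154 and 211 in rrp6 (-0.72 ± 0.18, adjusted p = 0.0136). In hst34 against WT it had 139 and 98.4 in hst34 and 165 and 236 in WT, which did not pass the test.

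The calls of AMD2 and NUP42 were lost without either hst34rrp6 library or either rrp6 library and with the replicate block, and that of AMD2 also with 10 times the pseudocount. MET32 kept its call in 7 of 15 alternatives. It was lost in edgeR, in DESeq2, with centring, with the pseudocount divided by 10, with the block, and without hst34rrp6 2 or either rrp6 library. Fewer were called without any single hst34rrp6 or rrp6 library, in members and over all genes. Centring gave 3 higher and 2 lower (1.11%, against 1.19% of all genes), edgeR 9 and 7 (3.55%, against 3.40%), and DESeq2 8 and 10 (3.99%, against 4.29%). Tested as a difference of differences, the effect of hst34 in rrp6 cells minus that in cells with Rrp6 was called higher for 3 members, AMD2, VHS1 and OPT2 (0.665%, against 1.15% of all genes), and lower for 0 (against 0.0378%). At an unadjusted p under 0.05 limma had 13 members higher and 1 lower there, and 288 and 16 over all genes.

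Called members were scattered over 49 of the 125 runs, with 67 called in at least 1 of these 5 RNA comparisons (14.9%, against 19.2% of all genes). The run from AMD2 to HSP78 on chromosome IV, 946717 to 974305, held 6 of them among 15 members, and no other run held more than 2; it was picked out after its values were seen. AMD2 and VHS1 fell in hst34, rrp6 and hst34rrp6, while CTA1 rose in rrp6 and hst34rrp6, and PRP28, a splicing helicase, rose by 0.59 and 0.63 in the same comparisons. HSP78 rose in hst34 alone of the 3 tests against WT, with an adjusted p of 0.0500 in hst34rrp6. The intervals of AMD2 and PRP28 overlap on opposite strands, and their differences ran in opposite directions in rrp6. As the use of strand is not given, reads of the 2 genes cannot be told apart where they overlap. The other 9 members of the run, such as PEX5, MNN10 and CHL4, were not called.

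Members from peaks of high and low Break-seq ratio had like RNA medians. In hst34 against WT the 258 members in peaks of the higher ratios, split at the median of 1.71, had a median of -0.11 and the 193 in peaks of the lower ratios one of -0.07 (log2). All 8 called members were among the 258, 3 higher and 5 lower. When only peaks of the higher ratios were used to choose members, 8 of 269 were called (2.97%). Over all genes 0.661% were called higher and 1.34% lower. Of the 8 called members, 4 lay in the run from AMD2 to HSP78, where neighbours are not independent observations. This split was not tested. The 22 members of the 2 peaks with the highest ratio had a median of -0.13, from -0.46 to 0.55, and none was called (limma).

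In DRIP the libraries grouped only in part by their labels. Over members, WT 2 resembled WT RNH 2 (Spearman 0.99, n = 451) more than WT 1 (0.68). The library hst34 1 resembled WT 1 (0.90) more than hst34 2 (0.85) or hst34 RNH 1 (0.57). The hst34 RNH libraries were closest to each other (0.73), with WT RNH 2 next (0.72 and 0.71). WT 2 held 83303106 recovered reads, the other 7 DRIP libraries 935412 to 2951246. HST4, deleted in hst34 per the labels, had DRIP signals of 15.3 and 53.1 in the libraries labelled hst34 (21 and 69 reads), 79.9 and 99.5 in those labelled hst34 RNH, 102 and 72.4 in WT and 53.4 and 58.7 in WT RNH. In RNA it had 9.69 and 0.726 per kb in hst34, 3.34 and 0 in hst34rrp6, and 92.5 and 93.3 in WT. In DRIP, HST4 was thus not at 0 in libraries labelled as lacking it, hst34 below stands for the libraries labelled so, and directions go by the labels.

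The members' DRIP level was that of other genes. Per kb, the member median was 102 and 89.3 in hst34 RNH, 78.6 and 76.6 in hst34, 104 and 81.3 in WT RNH and 94.4 and 83.3 in WT. Other genes had 103 and 88.8 in hst34 RNH, 82.5 and 78.7 in hst34, 103 and 75.1 in WT RNH and 94.9 and 77.2 in WT. The difference averaged 0.01 ± 0.06 (log2, SD, n = 8 libraries), from -0.06 to 0.10. In 5 equal bins of mean DRIP per kb, from low to high, members made up 8.11%, 7.84%, 9.15%, 10.2% and 7.26%. Over members, Spearman's rho between DRIP signal and RNA ran from -0.08 to 0.07 over the 8 DRIP libraries (n = 451 genes, which share each library and its depth). It was 0.04 and 0.07 in the hst34 libraries, where other genes had 0.17 and 0.16 (n = 4846), and other genes ran from -0.05 to 0.17 in all.

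The highest members by DRIP per kb were HTA2, XPT1, RRN11, MTF1 and ERP5. HTA2 had, per interval, 261 and 355 in hst34 RNH, 299 and 453 in hst34, 825 and 189 in WT RNH and 305 and 187 in WT, and its near-identical copy HTA1 makes it uncertain. RRN11, a subunit of an RNA polymerase I initiation factor, was even across libraries, with 591 and 610 in hst34 RNH, 574 and 541 in hst34, 520 and 684 in WT RNH and 495 and 565 in WT. XPT1 is a purine phosphoribosyltransferase and MTF1 a mitochondrial transcription factor.

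With all 8 DRIP libraries in 1 limma fit and no pairing, no member passed the test in any DRIP comparison, nor did any of the 5298 genes (0% in each comparison and in the difference of differences). Other fits called members for RNase H in hst34, as given below. For hst34 against WT the smallest adjusted p was 0.855. At an unadjusted p under 0.05, 2 members were higher (against 0.698% of all genes) and 15 lower (against 1.94%). Both hst34 libraries lay above both WT libraries in 30 members (6.65%, against 10.7% of all genes) and below in 118 (26.2%, against 23.7%). The unadjusted counts fell without WT 2 and rose without WT 1, in members and over all genes alike. The member median was -0.08 (log2), beside -0.01 over other genes. DESeq2 and edgeR called 0 members here as well. Their unadjusted counts were 2 and 4 in DESeq2 (64 and 46 over all genes) and 2 and 3 in edgeR (29 and 29).

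RNase H did not lower the DRIP signal of members as a group. In WT the median of RNH over no RNH was 0.08 (log2) in members and 0.07 in other genes, and 309 of 451 members lay above 0. No gene had an unadjusted p under 0.05 in limma (0% in either direction), DESeq2 had 0 such members and edgeR 1, and neither called any. In WT the spread of that fit is mainly the difference between libraries 1 and 2, whose RNH and untreated values resemble each other by number (Spearman 0.91 and 0.99). With such pairs, 7 members were higher and 1 lower at an unadjusted p under 0.05 (64 and 14 over all genes), and 0 were called. In hst34 the median was 0.42 in members and 0.33 in other genes, and 339 members lay above 0. At an unadjusted p under 0.05, 55 members were higher (against 8.74% of all genes) and 5 lower (against 1.47%). Both RNH libraries lay above both untreated ones in 252 members (55.9%, against 49.5% of all genes) and below in 53 (11.8%, against 13.3%).

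The balance differed between fits, and the cause was not tested. Centring each library brought the median in hst34 to 0.20 in members and 0.12 over all genes. On recovered reads, with their own scaling, the unadjusted counts of members were 9 higher and 21 lower in DESeq2 and 7 and 19 in edgeR. Over all genes they were 61 and 280 in DESeq2 and 26 and 242 in edgeR. With only the groups compared in the fit, limma called 90 members higher (against 15.9% of all genes) and 16 lower (against 4.11% of all genes). With same-numbered libraries of a strain as pairs, a fit chosen after seeing the data, limma called 176 members (39.0%, against 33.2% of all genes), 154 higher and 22 lower. The same fit called 24 members for the difference of differences (5.32%, against 4.42% of all genes). The labels do not say that equal numbers mark 1 DNA sample. The scaling constant of each DRIP column is not explained in the sources used here, and a library effect and an RNase H effect cannot be told apart where it is not known.

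DESeq2 called 5 members in hst34 RNH against hst34 (1.11%, against 1% of all genes), near the background. They are named here because of this call, after their values were seen. RPL24A had 146 and 131 in hst34 RNH and 388 and 337 in hst34 (log2 fold change -1.70 ± 0.34, DESeq2 adjusted p = 0.000567). PMA1 had 655 and 921 in hst34 RNH and 1818 and 1746 in hst34 (-1.49 ± 0.38, DESeq2 adjusted p = 0.0110). In WT the same genes did not separate by treatment, with 1037 and 470 in WT RNH and 1002 and 485 in WT for PMA1, and 193 and 174 in WT RNH and 236 and 167 in WT for RPL24A. ESF1, an 18S rRNA processing factor, and JJJ1, a J-protein of ribosome assembly, were also lower in hst34 RNH, and KAP122, an importin, was higher, with 520 and 475 in hst34 RNH and 203 and 206 in hst34. edgeR called 0 of them, and the limma estimates were -1.31 ± 0.28 for RPL24A and -1.19 ± 0.45 for PMA1.

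RPS10B had 58.1 and 111 in hst34 RNH and 282 and 209 in hst34, and BGL2 165 and 103 in hst34 RNH and 283 and 270 in hst34. Of the 5 most transcribed members, RPL30 was the exception, with 85.9 and 109 in hst34 RNH and 103 and 97.8 in hst34. None of the 3 passed the limma test. In the 5 bins of RNA, from low to high, the median DRIP difference of RNH over none in hst34 was 0.50, 0.47, 0.44, 0.19 and 0.28 in members and 0.45, 0.41, 0.41, 0.33 and 0.05 in other genes. For hst34 against WT without RNase H it was -0.11, -0.21, -0.10, 0.11 and 0.18 in members and -0.11, -0.14, -0.12, 0.01 and 0.36 in other genes. The top bin held 81 members and 979 other genes.

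**Figure D3:**
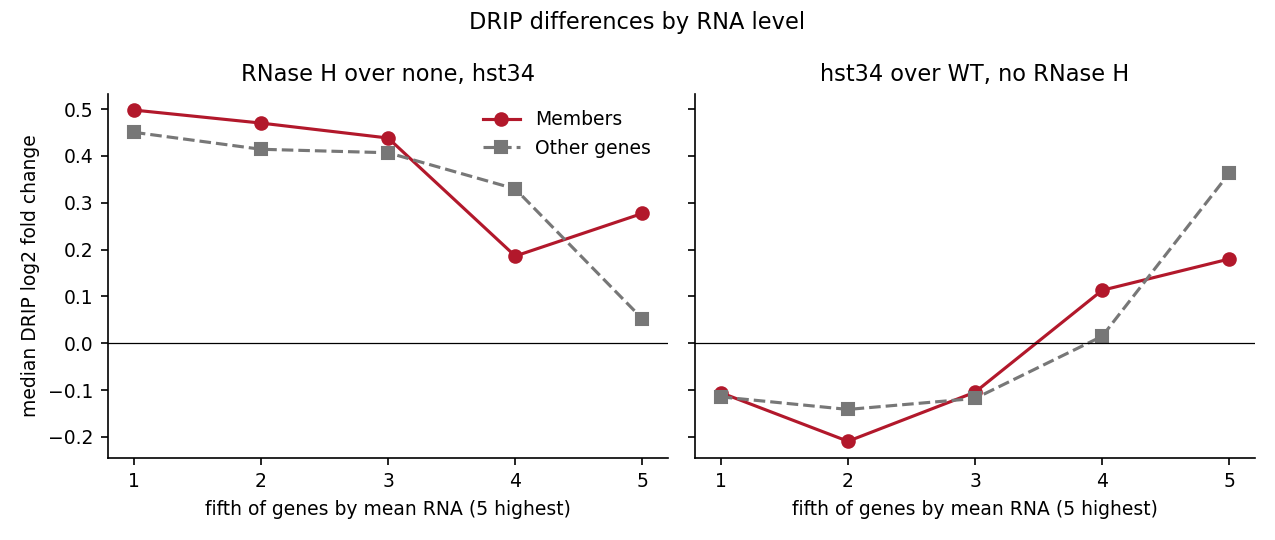
Median DRIP log2 fold change (y axis) by bin of genes in mean RNA (x axis, 5 highest), for members and other genes, with RNase H over none in hst34 (left) and hst34 over WT without RNase H (right). In the top bin the median is 0.28 in members and 0.05 in other genes on the left, and 0.18 and 0.36 on the right.

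After RNase H, hst34 against WT had a member median of 0.21 beside 0.24 over other genes. At an unadjusted p under 0.05 limma had 9 members higher (against 1.72% of all genes) and 10 lower (against 2.28%). The higher count rose without WT RNH 1, in members and over all genes alike. edgeR called 0 members and DESeq2 3 (0.665%, against 0.566% of all genes), all lower and named because of this call. RNH1, which encodes a cellular ribonuclease H, had 159 and 106 in hst34 RNH and 412 and 210 in WT RNH (-1.41 ± 0.41, DESeq2 adjusted p = 0.0481). Its RNA did not pass the test, with 163 and 122 per kb in hst34 and 166 and 168 in WT. TAF1, of the general factor TFIID, and JJJ1 had DESeq2 differences of -0.96 ± 0.26 and -1.05 ± 0.30.

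HST3 and GAL1 had uneven WT libraries. HST3 had DRIP signals of 615 and 843 in hst34 RNH, 374 and 333 in hst34, 442 and 37.6 in WT RNH and 291 and 17.9 in WT. GAL1 had 445 and 721 in hst34 RNH, 278 and 286 in hst34, 370 and 86.6 in WT RNH and 189 and 93.2 in WT. At both, the libraries numbered 2 of WT lay far below those numbered 1, and no limma test passed; the estimate for HST3 in hst34 against WT was 1.93 ± 1.16.

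**Figure D4:**
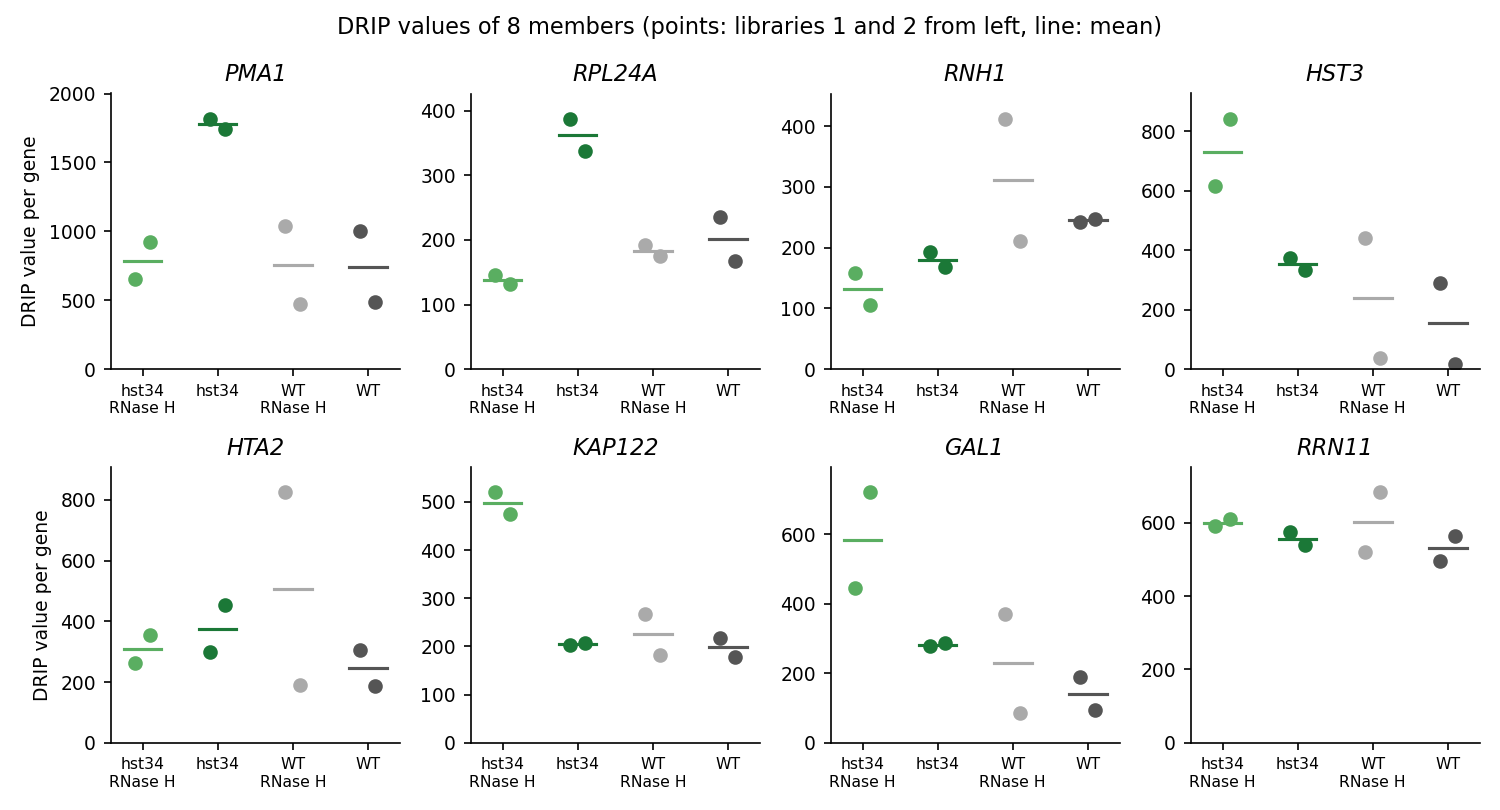
DRIP signal per gene interval (y axis, from 0) of 8 members in hst34 with RNase H, hst34, WT with RNase H and WT (x axis). Points are libraries and lines their means; PMA1 and RPL24A are highest in hst34 without RNase H (1818 and 1746, and 388 and 337), and HST3 has far lower values in both WT libraries numbered 2. The 8 genes were picked after their values were seen.

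**Figure D5:**
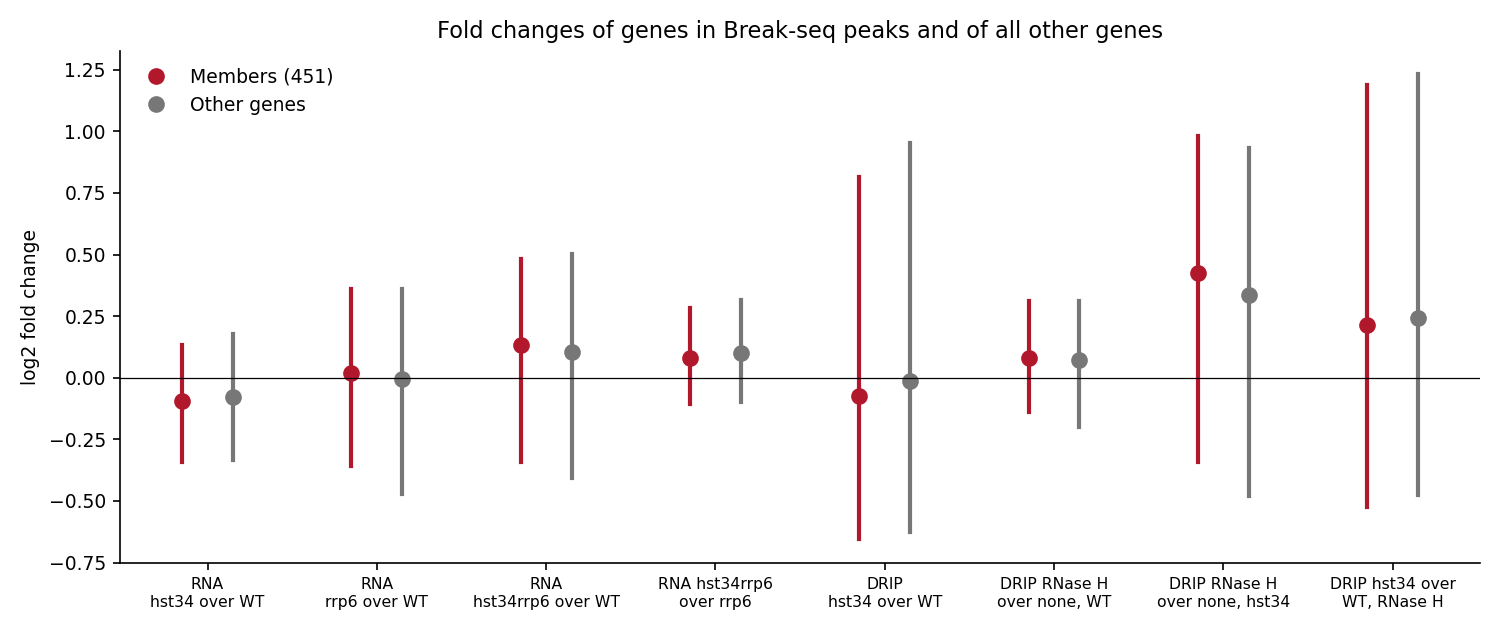
Median log2 fold change (points) with the 10th to 90th percentile of genes (lines), on the y axis, for members and other genes in 4 RNA and 4 DRIP comparisons (x axis). The medians of members and other genes lie close together throughout, at -0.09 and -0.08 in RNA of hst34 over WT and at 0.42 and 0.33 in DRIP of RNase H over none in hst34.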

How the data were processed

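Of 27 samples, 20 from RNA-seq, DRIP-seq or Break-seq were analysed; 7 NET-seq samples were not analysed here. All 3 deposited tables hold a signal made by the authors: reads times 1 constant per library, divided in RNA by S. pombe spike-in and length per the table title. The submitters' processing notes name Bowtie2, bedtools, TopHat2, SAMtools, HTSeq 0.9.1 and sacCer3; not given in the sources used here are their roles, any use of strand and how DRIP and Break-seq were scaled. Peaks came from MACS per the table title, as 1 list and not per sample.

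An interval was a member if 1 peak covered at least 500 bp of it; all 451 matched RefSeq symbols. Members and gene lists were chosen with earlier results of these data known. Each table was log2 transformed after adding 58.8 (RNA) or 12.5 (DRIP) and tested with limma 3.58.1 and its intensity trend in R 4.3.3, fitting the 8 libraries of each table together, genes above 0 in at least 2 libraries, and Benjamini-Hochberg adjustment over all genes at 0.05. Fold changes on this scale understate low genes, and ± beside one is the standard error with 2 libraries per group. In RNA the prior degrees of freedom were infinite, so each gene takes the spread pooled over genes, not that of its own libraries. Where the design allowed for counts, values were scaled, so this test was used. Dividing by the value of 1 read gave whole reads for 100% of values within 0.01: 5487526 to 10183415 per RNA library and 63393 to 150851 in Break-seq peaks. edgeR 4.0.16 and DESeq2 1.42.0 on those reads were alternatives, as were centring, other pseudocounts, filters, overlaps, a replicate block and leaving out each library. A DRIP fit with same-numbered libraries of a strain as pairs was added after seeing the data. The scripts were tested on simulated data. Named genes are those at the edge of the rule, in the peaks of highest ratio or in several peaks, up to 6 called per direction and comparison, the 5 highest in RNA and in DRIP per kb, list members (highest RNA first) and the altered genes; other named genes were chosen after their values were seen. Genes with near-identical copies are uncertain.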

Additional observations from a re-analysis of the deposited data

Results flagged for a closer look

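For 3 members the RNA difference of hst34 differed between cells depleted of Rrp6 and cells with Rrp6, by the interaction term of limma with all 8 RNA libraries. AMD2 had an interaction of 1.61 ± 0.26 (log2, SE, n = 2 per group, adjusted p = 6.51e-07). Its hst34 difference was 0.67 in Rrp6-depleted cells, hst34rrp6 over rrp6, and -0.94 in cells with Rrp6, hst34 over WT. Most of the AMD2 interval lies across PRP28 on the other strand, and the use of strand is not given. Reads of that pair cannot be told apart. VHS1 had an interaction of 1.23 ± 0.29 (adjusted p = 0.00322), with differences of 0.32 and -0.91 in the same order. OPT2 had an interaction of 1.06 ± 0.26 (adjusted p = 0.00518), with 168 and 197 per kb in hst34rrp6 and 166 and 168 in rrp6, and 62.3 and 50.1 in hst34 and 171 and 160 in WT. AMD2 and VHS1 were already low in rrp6, with 73.7 and 82.3, and 118 and 164 per kb. AMD2 kept its interaction call without each library in turn. VHS1 lost it without WT 2, rrp6 1 or hst34rrp6 2, and OPT2 without WT 1, rrp6 1, rrp6 2 or hst34rrp6 2. The cause of these differences was not tested.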

How the results depend on the processing

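Members called in RNA by limma, 8 in hst34, 34 in rrp6, 60 in hst34rrp6 (each against WT) and 4 in hst34rrp6 against rrp6, moved with the processing. In that order, edgeR on recovered reads called 51, 149, 182 and 16, and DESeq2 34, 118, 160 and 18. Centring gave 32, 141 and 168 against WT (7.10%, 31.3% and 37.3%, against 7.52%, 33.3% and 38.7% of all genes). Leaving out the lowest 25% of genes left 345 members and gave 4, 20, 33 and 0. These were 1.16%, 5.8%, 9.57% and 0% of those members, against 1.86%, 9.87%, 11.1% and 0.478% of all genes kept. Members at 1000 bp or more, 288 in all, gave 3, 15, 29 and 2. These were 1.04%, 5.21%, 10.1% and 0.694% of those members, against 2.002%, 11.2%, 15.9% and 1.04% of all genes. A fit of only the groups compared called 3 in hst34, 71 in rrp6 and 7 in hst34rrp6 against rrp6. That was 0.665%, 15.7% and 1.55% of members, against 0.567%, 20.2% and 3.21% of all genes. Leaving out 1 library, where the lone one is assumed to vary like the other groups, gave 4 to 39, 14 to 66, 25 to 119 and 1 to 6. Same-numbered libraries share only a number in the labels; their deviations correlated at -0.20 to 0.11 in RNA, and at 0.12 to 0.94 in DRIP, where 0.94 was WT with WT RNH. With the replicate block 7, 21, 41 and 1 members were called in RNA. That was 1.55%, 4.66%, 9.09% and 0.222% of members, against 1.15%, 8.05%, 11.6% and 0.661% of all genes. In DRIP the block called 0. Pairing same-numbered libraries within a strain, chosen after seeing the data, called 0 members for RNase H in WT and 176 in hst34 (39.0%, against 33.2% of all genes). In DRIP other alternatives called 0 members except for RNase H in hst34, with 106 in a fit of only those groups and 5 in DESeq2, and 3 in DESeq2 for hst34 against WT after RNase H. The RNA level of members minus others, -0.11, was -0.0848 at any shared base pair, -0.26 at 1000 bp, -0.0503 in intervals of 1000 to 2000 bp, -0.0476 with 10 times the pseudocount and -0.18 without the lowest 25% of genes. The DRIP level, 0.01, was 0.0857 at 1000 bp and 0.29 when not divided by length. Of 39 named results, 23 kept their call in every alternative and 0 reversed. The cause of these shifts was not tested. The 2 libraries per group and the 935412 reads of the shallowest DRIP library limit what can be detected.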
